A study of Homo sapiens with 6 samples.

Results

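The MDA-MB-436-labelled libraries were compared with those of MCF10A over all genes, 4 of the 6 libraries of the series. MCF10A is a non-tumorigenic mammary epithelial line, grown here with horse serum, EGF, hydrocortisone, cholera toxin and insulin. MDA-MB-436 is a breast adenocarcinoma line, grown in another medium with fetal bovine serum and without added CO2, and no treatment is recorded for either. The remaining 2 libraries are labelled HT-29, a colorectal adenocarcinoma line, given 200 U/ml IFN-γ for 24 hours. RNA sequencing gave 1 library labelled 25M reads and 1 labelled as deeper for each line, with 16.7 to 69.5M reads recovered from the deposited values. Nothing in the labels says whether each line was sampled from more than 1 culture, and p-values then reflect only how far its libraries lie apart, possibly for technical reasons. Between the 2 libraries of a line, the median chi-square over genes was 0.553 for MCF10A and 0.686 for the MDA-MB-436 label. Sampling of reads alone gives 0.455. The SEs and p-values below may therefore hold little or no spread between cultures. The labels of the deeper MCF10A library also disagree on its planned depth. Values below are normalised read counts, given for the 25M library first and the deeper library second.

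Marker genes go against the label MDA-MB-436. KRT20, a keratin of mature intestinal epithelium, stood at 29900 and 30880 in the libraries so labelled and at 0 and 1.47 in MCF10A. VIL1, the microvillus protein villin, stood at 2055 and 2198 against 0 and 0, and CDX2, the intestinal homeobox factor, at 194 and 182 against 0 and 0. LGALS4, an intestinal galectin, had 31569 and 33856 against 0 and 1.96. VIM, the mesenchymal filament protein vimentin, which MDA-MB-436 is known to express, was at 16.5 and 7.39 in these libraries and at 25901 and 26246 in MCF10A. The libraries labelled HT-29 showed the opposite, with VIM at 36599 and 35267, KRT20 at 0 and 0.547, VIL1 at 0 and 0 and CDX2 at 0 and 0. The intestinal genes were therefore in the MDA-MB-436-labelled libraries and vimentin in those labelled HT-29, which is what an exchange of the labels MDA-MB-436 and HT-29 would give. GBP4, a guanylate-binding protein induced by IFN-γ, had 38377 and 37589 in the MDA-MB-436-labelled libraries, 213 and 199 in those labelled HT-29 and 0 and 1.47 in MCF10A. The labelled groups were nevertheless kept, and directions below refer to them. Under an exchange, line, medium and IFN-γ treatment would differ at once between the groups and cannot be told apart.

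**Figure D1:**
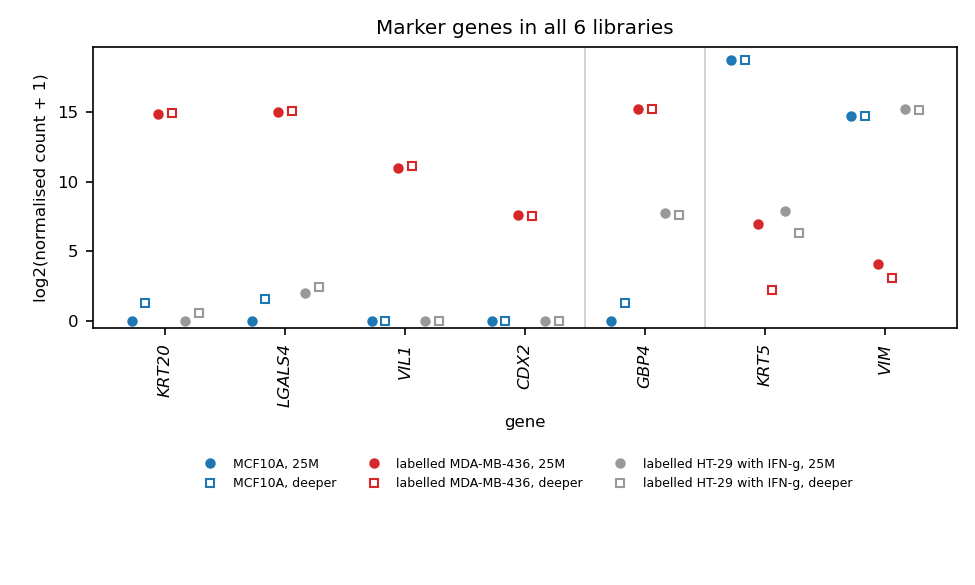
Normalised counts on a log2(value + 1) axis for 7 marker genes in the 6 libraries, with 1 point per library (circles 25M, squares deeper). KRT20, LGALS4, VIL1 and CDX2 are high in the red points, labelled MDA-MB-436, where VIM lies at 16.5 and 7.39 against 36599 and 35267 in the grey points, labelled HT-29.

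MCF10A matched its label in the same panel. KRT5, a basal keratin, stood at 424101 and 416184 in MCF10A and at 124 and 3.69 in the MDA-MB-436-labelled libraries. CDKN2A, CDKN2B and MTAP, partly overlapping neighbours on chromosome 9 that MCF10A is known to lack, had 3, 0 and 5 reads in both MCF10A libraries together, against 5410 and 5713, 3216 and 3241 and 4517 and 4582 normalised counts in those labelled MDA-MB-436. The 25M library labelled MDA-MB-436 held more of some abundant MCF10A genes than the deeper one, with KRT5 above among them. KRT14, another basal keratin, had 225570 and 218996 in MCF10A and 84.4 and 0.616 in the libraries labelled MDA-MB-436. The 25M library labelled HT-29 likewise lay above its deeper one, with KRT5 at 235.5 and 77.15 and KRT14 at 91.5 and 2.74. Of 40 genes with at least 5000 in both MCF10A libraries and under 50 in the deeper library labelled MDA-MB-436, 31 were higher in the 25M library, at a median of 14.4 against 8.31. The ceiling of 50 was set on the deeper library alone, which favours this direction, so the count does not measure the size of the difference. The part of this difference in results on nearly silent genes was not tested. The 20 leukocyte markers, 4 of them with no read, summed to 237.8 and 227.8 in MCF10A and 131.8 and 116.4 in the MDA-MB-436-labelled libraries, with PTPRC, which encodes CD45, at 3.75 and 4.91 against 10.3 and 1.23. The 18 markers of endothelium and fibroblasts, 3 with no read, summed to 1131 and 1104 against 1847 and 1877. Of the latter sum, ESAM, an adhesion molecule of endothelium and some epithelia, made up 1630 and 1630.

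Over all genes, 3999 of 15638 were higher in the MDA-MB-436-labelled libraries and 3702 were lower. These are 25.6% and 23.7% of the genes tested, by limma with a Benjamini-Hochberg adjusted p below 0.05 and at least a 2-fold change. The changes were large: 1531 genes were at least 8-fold higher and 1227 at least 8-fold lower. In 165 genes both libraries labelled MDA-MB-436 held at least 500 normalised counts and both MCF10A libraries under 5, and 143 genes showed the reverse. Counts for the gene lists below are over tested members and are read against the 25.6% and 23.7%, with a median log2 fold change of 0 over all genes and a median absolute change of 0.996. Where leaving out the 25M or the deeper MDA-MB-436-labelled library moved a median by more than 1.5 times, both values follow it in brackets in that order. Fewer members then passed the filter. A member near 0 in MCF10A was tested only where other libraries carried it. In bulk RNA, fewer cells with a transcript and less of it per cell cannot be told apart.

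**Figure D2:**
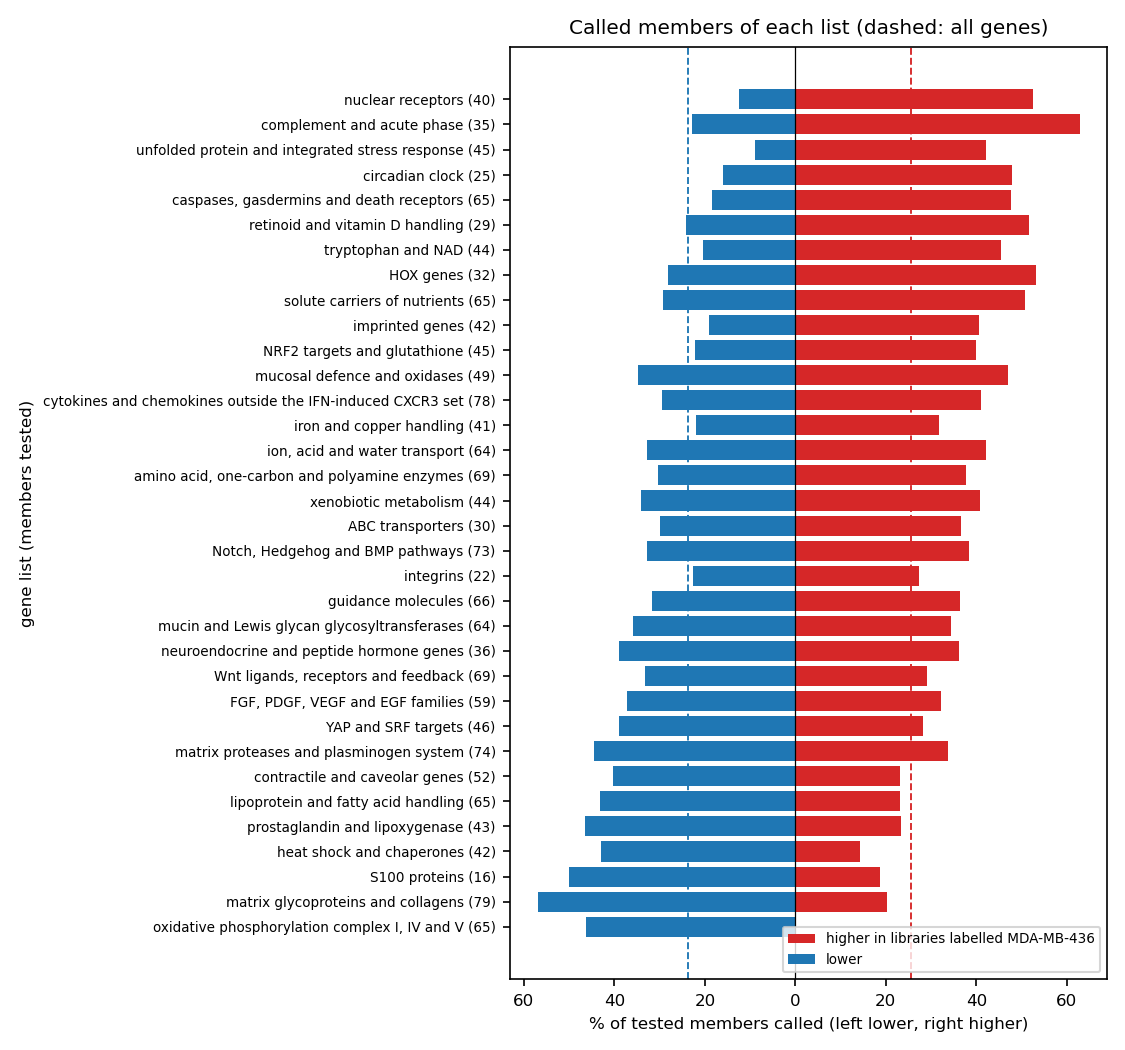
Percent of the tested members of each gene list that were higher (red, right) or lower (blue, left) in the MDA-MB-436-labelled libraries, with the number tested in brackets and dashed lines at 25.6% and 23.7% for all genes. Nuclear receptors and complement genes lie at the top, with more members higher, and matrix and oxidative phosphorylation genes at the bottom, with more members lower.

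Cells that lack amino acids or accumulate misfolded protein in the endoplasmic reticulum phosphorylate the initiation factor eIF2α. Bulk translation then slows while the mRNA of the transcription factor ATF4 is translated, and ATF4 with its partners of the C/EBP and ATF families induces enzymes of amino acid synthesis, amino acid carriers and the factors ATF3 and CHOP. The endoplasmic reticulum has further sensors, of which IRE1 splices the mRNA of XBP1 and ATF6 raises chaperones. In colonic epithelium, secretory cells depend on this machinery.

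Sequences of promoters are shown for 4 genes of this response that were higher in the MDA-MB-436-labelled libraries. Each holds letters that match a pattern of the composite element known to bind C/EBP and ATF factors. The sequences are from RefSeq (GRCh38.p14), from 250 bases before to 50 after the start of the gene, 5′ to 3′ on the strand of the gene. Capitals mark matches to TGATGNAAN on either strand. Only the first listed start site of each gene was searched, and other start sites were not. ATF3 lies at chr1:212565157-212565456 on the plus strand, ASNS at chr7:97872359-97872658 on the minus strand, CHAC1 at chr15:40953221-40953520 and HERPUD1 at chr16:56931892-56932191, both on the plus strand.
ATF3: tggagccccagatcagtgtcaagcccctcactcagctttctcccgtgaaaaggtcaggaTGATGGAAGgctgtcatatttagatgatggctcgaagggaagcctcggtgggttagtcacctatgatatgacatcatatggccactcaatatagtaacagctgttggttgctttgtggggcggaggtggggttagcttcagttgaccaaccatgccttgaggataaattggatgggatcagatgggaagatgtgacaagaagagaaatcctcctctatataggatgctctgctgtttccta
ASNS: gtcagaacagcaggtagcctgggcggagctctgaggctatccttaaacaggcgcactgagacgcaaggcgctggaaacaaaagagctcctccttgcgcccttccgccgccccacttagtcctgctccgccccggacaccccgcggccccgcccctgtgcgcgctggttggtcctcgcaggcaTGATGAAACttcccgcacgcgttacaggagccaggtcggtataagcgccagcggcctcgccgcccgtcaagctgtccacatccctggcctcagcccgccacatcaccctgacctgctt
CHAC1: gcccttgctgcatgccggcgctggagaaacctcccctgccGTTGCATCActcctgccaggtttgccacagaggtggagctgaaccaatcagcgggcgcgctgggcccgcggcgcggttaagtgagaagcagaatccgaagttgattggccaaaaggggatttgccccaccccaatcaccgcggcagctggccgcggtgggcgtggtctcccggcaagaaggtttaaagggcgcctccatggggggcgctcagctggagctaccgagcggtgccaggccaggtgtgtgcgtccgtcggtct
HERPUD1: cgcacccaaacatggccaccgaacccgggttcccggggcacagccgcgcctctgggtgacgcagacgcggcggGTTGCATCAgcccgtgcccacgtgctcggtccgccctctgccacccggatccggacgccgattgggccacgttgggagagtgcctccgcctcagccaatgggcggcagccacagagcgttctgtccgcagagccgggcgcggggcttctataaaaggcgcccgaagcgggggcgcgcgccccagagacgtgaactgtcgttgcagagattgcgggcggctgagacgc

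The match starts 191 bases before the start site in ATF3, 68 in ASNS, 210 in CHAC1 and 177 in HERPUD1. Of 42 promoters found for tested genes of the stress response list, these 4 held a match, or 9.52%. All 4 belong to the 18 that were higher. A match was present in 1.87% of the promoters of 11786 tested genes and in 3.67% of all 27305 in the table. Among 1046 promoters of genes at least 8-fold higher the share was 3.82%. In CHAC1 and HERPUD1 the matched letters are the same, GTTGCATCA, the searched pattern read on its other strand. A match is a description of these letters and not evidence of binding.

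Stress response genes were higher in the MDA-MB-436-labelled libraries, both among the effectors downstream of ATF4 and among secretory genes. Of 45 tested members of the list, 19 were higher and 4 lower, and the median log2 fold change was 0.676 (0.418 and 0.378 with 1 library left out). With no fold minimum 29 were higher and 14 lower. ATF3, a stress-induced repressor and activator, stood at 93.6 and 85.9 in MCF10A and at 9472 and 9547 in the MDA-MB-436-labelled libraries, a log2 difference of 6.71 (SE 0.048, limma's adjusted p = 2.99e-11). DDIT3, which encodes CHOP, went from 97.4 and 92.3 to 4469 and 4699, 49.6-fold by pooled reads. CHAC1, a glutathione-degrading enzyme, went from 80.5 and 82.5 to 8158 and 8718, 104-fold. The libraries of each line lay close together in these 3 genes, and the lines lay far apart. SESN2, a leucine sensor, had 14413 and 14254 against 717 and 801. PPP1R15A, the phosphatase subunit that restores translation, had 15485 and 15836 against 878 and 903. TRIB3, a pseudokinase that restrains the response, was already at 3934 and 3879 in MCF10A and reached 31582 and 31879. VLDLR, a lipoprotein receptor, was at 5.62 and 2.95 and 1315 and 1336. The libraries labelled HT-29 also lay above MCF10A in most of these genes. There ATF3 stood at 3177 and 3177, DDIT3 at 1923 and 1840 and VLDLR at 2117 and 2170, while TRIB3, at 3662 and 3547, was not above MCF10A.

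ATF4 mRNA itself differed less than 2-fold. It was at 13527 and 13151 in MCF10A and at 24978 and 26144 in the MDA-MB-436-labelled libraries, a log2 fold change of 0.94 (adjusted p = 2.58e-08), under the fold threshold. GDF15, a stress-induced secreted factor, rose from 715 and 685 to 17665 and 18840, and the peptide gene ADM2 from 56.2 and 39.3 to 3156 and 3391. The mitochondrial death genes BBC3 and PMAIP1, which encode PUMA and NOXA, were at 4097 and 4252 against 296 and 290.2 and at 3755 and 3731 against 320.2 and 339.7. STC2, a secreted glycoprotein also known as a target of ATF4, went the other way, from 3056 and 3030 to 6.18 and 3.08. DDIT4, an inhibitor of mTOR signalling, had 31199 and 30976 and 29498 and 31090 (adjusted p = 0.354).

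The arm of endoplasmic reticulum secretion was mixed. XBP1, the spliced factor of that arm, rose from 2921 and 2887 to 22007 and 22144, and its sensor ERN1 from 193 and 179.7 to 1842 and 1840. ERN2, a sensor of mucosal epithelia, had no read in MCF10A and 681 and 635 here. AGR2, a disulfide isomerase needed for mucin production, had 9284 and 9699 against 7.49 and 6.87, and CREB3L1, a membrane-bound factor of secretory cells, 5546 and 5577 against 3.75 and 1.47. In the libraries labelled HT-29, CREB3L1 was also high, at 3321 and 3059, and AGR2 was not, at 0 and 1.09. The abundant chaperones did not share this size of change. HSPA5, the chaperone BiP, had 23480 and 23238 in MCF10A and 37165 and 37466 in the other libraries, a log2 fold change of 0.68. HSP90B1 differed by -0.21, and CALR, calreticulin, fell from 34261 and 33741 to 11843 and 11893.

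**Figure D3:**
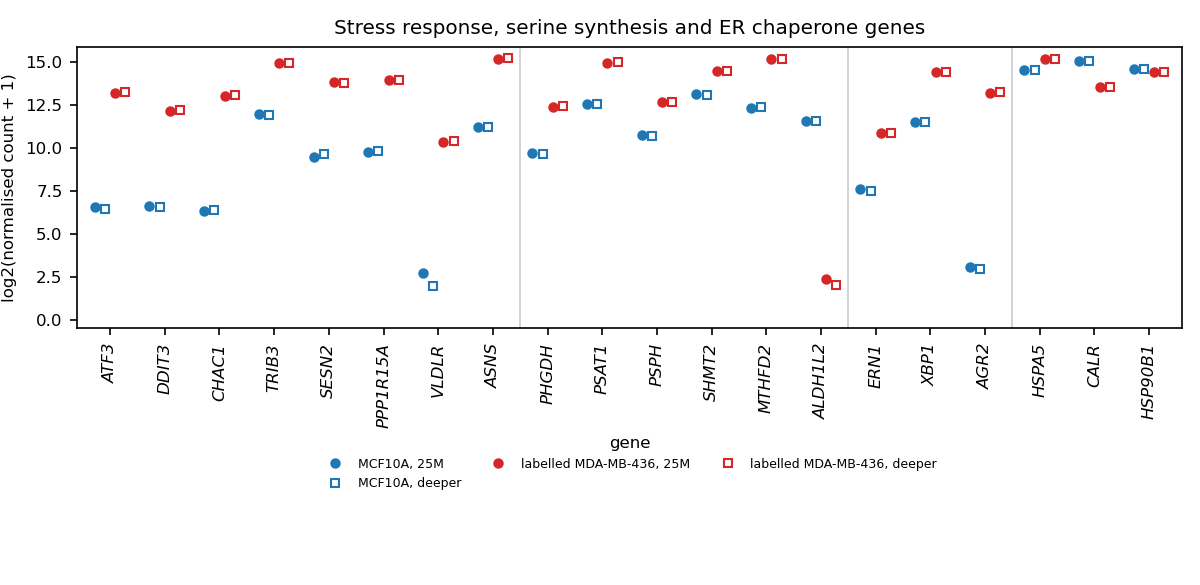
Normalised counts on a log2(value + 1) axis in the 4 libraries compared, for factors and effectors of the stress response, serine and one-carbon enzymes, secretory genes and chaperones, from left to right. Red points, labelled MDA-MB-436, lie above blue points for ATF3 by 6.71 and for AGR2 by 10.18, while HSP90B1 differs by -0.21 and ALDH1L2 by -9.38.

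Serine synthesis moved with the stress genes. PHGDH, which commits glycolytic carbon to serine, rose from 829.5 and 793 to 5264 and 5432, PSAT1, the next enzyme, from 5990 and 6068 to 31773 and 31983, and PSPH, the last, from 1700 and 1666 to 6623 and 6389. All 3 steps were thus higher. SHMT2 and MTHFD2, which carry serine carbon into mitochondrial folate, had 22830 and 23148 against 8906 and 8652 and 36084 and 37073 against 5120 and 5288. ALDH1L2, the mitochondrial enzyme that burns formyl-folate to CO2, was nearly absent, at 4.12 and 3.08 against 3062 and 3040, a log2 difference of -9.38 (SE 0.129, limma's adjusted p = 4.24e-10). The route into mitochondrial folate was therefore higher in these libraries and this exit from it lower.

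Other amino acid enzymes split. Of 69 tested enzymes of amino acid, one-carbon and polyamine metabolism, 26 were higher and 21 lower, with a median of 0.148 (-0.072 and -0.016 with 1 library left out). It was -0.088 without either HT-29-labelled library. ASNS, asparagine synthetase, had 37436 and 37763 against 2416 and 2357, 15.9-fold (95% counting interval 15.4 to 16.3). GPT2, mitochondrial alanine transaminase, had 20809 and 21440 against 1659 and 1621, PYCR1, the last step to proline, 9933 and 10002 against 1543 and 1546, and CTH, which makes cysteine, 1799 and 1650 against 131 and 120.3. These are enzymes that make amino acids. GLUL, glutamine synthetase, fell from 14340 and 13974 to 3343 and 3383, OAT, ornithine aminotransferase, from 6429 and 6397 to 708 and 700.3, and CPS1, the first enzyme of the urea cycle, from 706 and 661 to 14.4 and 11.1. WARS, tryptophanyl-tRNA synthetase, which IFN-γ is known to induce as well, had 351023 and 358192 against 3831 and 3827.

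Nutrient carriers differed in kind. Of 65 tested, 33 were higher and 19 lower, with a median of 1.03 (0.618 and 0.417 with 1 library left out). SLC1A4, a neutral amino acid carrier, rose from 101 and 111 to 4895 and 4903, and SLC7A11, the cystine carrier, from 2004 and 1990 to 12066 and 11402. SLC43A1, a carrier of large neutral amino acids, had 4336 and 4361 against 24.3 and 36.3, whereas SLC43A3 of the same family, a purine carrier, had 4.12 and 5.54 against 15188 and 15214. Within this family the 2 lines thus held different members. SLC1A3, a glutamate carrier, fell from 1648 and 1633 to 0 and 0.616. SLC44A4, a choline and thiamine pyrophosphate carrier of colon, had 7456 and 7648 against 3.75 and 0, and SLC5A1, the intestinal glucose carrier, 488 and 473 against 18.7 and 9.82. SLC7A5, the main leucine carrier, was high in both lines, at 81777 and 82297 and 50099 and 48666.

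Nuclear receptors are transcription factors switched by hormones, vitamins and lipids. Of 40 tested, 21 were higher in the MDA-MB-436-labelled libraries and 5 lower, with a median of 1.11. NR3C1, the glucocorticoid receptor, was at 4219 and 4231 in MCF10A and at 0 and 2.46 in the MDA-MB-436-labelled libraries, 2238-fold lower by pooled reads (95% counting interval 874 to 8214) with a log2 difference of -11.15 (SE 0.604, limma's adjusted p = 4.07e-05). It stood at 5006 and 5178 in the libraries labelled HT-29. Genes known to respond to glucocorticoids did not move as a block. FKBP5, a receptor co-chaperone, had 2505 and 2536 against 35051 and 34771, PER1, a clock gene, 675 and 745 against 4805 and 4994, and MT2A, a metallothionein, 7121 and 7445 against 87488 and 84780. TSC22D3, which encodes GILZ and was chosen after its values were seen, had 5610 and 5985 against 2406 and 2388. Hydrocortisone, a glucocorticoid, is in the medium of MCF10A alone among the recorded media, so medium and line cannot be told apart here.

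HNF4A and HNF4G, receptors that drive enterocyte and hepatocyte genes, had 1989 and 2037 against 3.75 and 4.42 and 4099 and 3724 against 29.96 and 23.6. NR5A2, a receptor of crypt and liver cells, had no read in MCF10A and 389 and 397 here. RARA and RARG, receptors for retinoic acid, rose from 614 and 659 to 2905 and 2958 and from 2880 and 2748 to 8140 and 8415. VDR, the vitamin D receptor, fell from 3929 and 3865 to 894 and 909.7, and CYP27B1, which makes its ligand, from 1350 and 1293 to 183 and 153. Receptors for retinoids and vitamin D therefore moved in opposite directions. Of 29 tested genes that handle retinoids and vitamin D, 15 were higher and 7 lower, with a median of 1.11 (0.05 and 0.144 with 1 library left out). ALDH1A1, which makes retinoic acid, had 4420 and 4503 against 1.87 and 3.44, and RARRES3, a phospholipase induced by retinoic acid and by interferon, 13019 and 13494 against 11.2 and 8.35. LRAT, which stores retinol as ester, had 214 and 259 in MCF10A and no read here, and CYP26B1, which degrades retinoic acid, fell from 513 and 471 to 10.3 and 11.7.

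HOX genes mark position along the body axis, and the highest numbers are known from the most posterior tissues. Of 32 tested, 17 were higher and 9 lower, with a median of 1.08. HOXB9 stood at 43.1 and 38.8 in MCF10A and at 13507 and 13671 in the MDA-MB-436-labelled libraries, a log2 difference of 8.34 (SE 0.121, limma's adjusted p = 5.58e-10). HOXB7 and HOXA13 had no read in MCF10A and reached 904 and 903 and 844 and 923. HOXB13, HOXB8 and HOXB5 had 173 and 153, 605 and 544 and 636 and 636 against 0 and 0.491, 1.87 and 0.491 and 0 and 2.95. HOXB3 and HOXB6 rose from 182 and 159 to 2627 and 2494 and from 167 and 176 to 998 and 1126. Most of the HOXB cluster was thus higher, while HOXB2 fell from 193 and 175 to 26.8 and 38.2. The count of higher members includes 3 HOXD genes, HOXD4, HOXD8 and HOXD13, at no more than 12.35 normalised counts.

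The HOXC cluster went the other way. HOXC8 fell from 625 and 601 to 92.6 and 89.9, HOXC9 from 376 and 343 to 28.8 and 33.3 and HOXC13 from 294 and 299 to 39.1 and 40.6. HOXC4 alone among its called members was higher, at 519 and 594 against 5.62 and 7.36. HOXC10, one of the lower members, was at only 20.6 and 18.2 against 6.18 and 7.39, and its call was lost when tested against a fold of 2. In the HOXA cluster HOXA11 rose from 28.1 and 25.5 to 1359 and 1341 and HOXA10 from 957 and 948 to 2139 and 2014, while HOXA5, at 1618 and 1546 and 1031 and 1018, lay less than 2-fold apart. HOXA9 had 258 and 253 and 183 and 187 (adjusted p = 0.0524). The sources used here do not give the strand setting of the counts. Antisense transcripts of these clusters cannot be told apart from the genes.

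**Figure D4:**
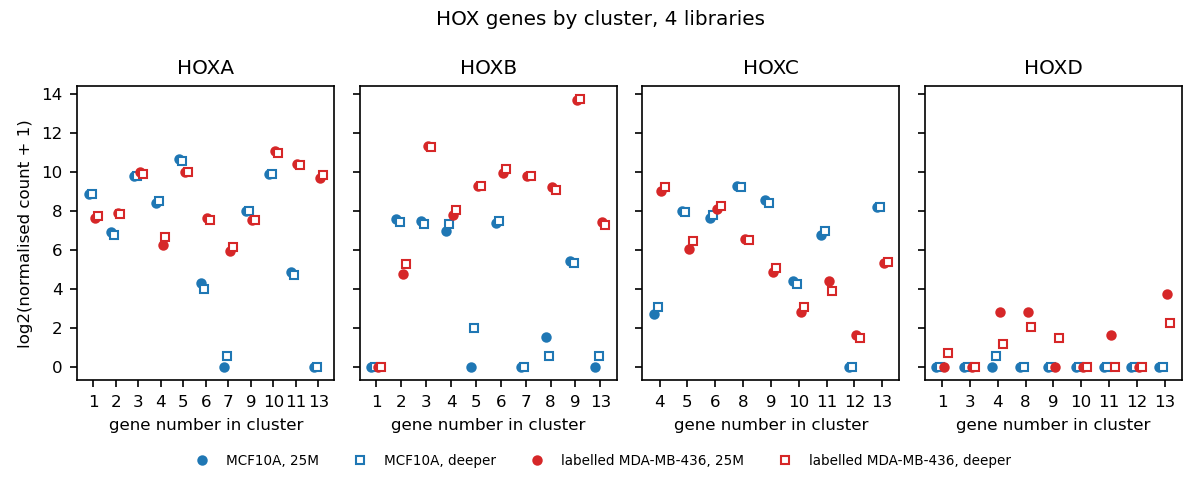
Normalised counts on a log2(value + 1) axis for each HOX gene in the 4 libraries compared, with 1 panel per cluster and genes in numerical order (circles 25M, squares deeper). Red points, labelled MDA-MB-436, lie above blue points for most of HOXB and for HOXA11 and HOXA13, and below them for HOXC8, HOXC9 and HOXC13.

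Canonical Wnt signalling keeps intestinal stem cells dividing and induces its own inhibitors. Some feedback genes were among the higher members. AXIN2, a scaffold of the destruction complex, stood at 1264 and 1237 against 1.87 and 3.44. RNF43 and ZNRF3, ligases that remove Wnt receptors, were at 7428 and 7366 against 320.2 and 293 and 1929 and 1819 against 549 and 621. DKK1, a secreted Wnt inhibitor, went the other way, from 2429 and 2351 to 700 and 737. ASCL2, a stem cell factor, had no read in MCF10A and 269.7 and 286 here. LGR5, a receptor of crypt base stem cells, had 0 and 3 reads in MCF10A and these libraries and was not tested. The list as a whole was balanced, with 20 of 69 tested members higher, 23 lower and a median of -0.167, which was 0 without either MCF10A library. FZD5, a Wnt receptor, rose from 234 and 264 to 5509 and 5488, while FZD8, FZD2, FZD1 and FZD3 were among the receptors that fell. SFRP1, a secreted inhibitor, stood at 27426 and 28459 in MCF10A and 10.3 and 0 here, a log2 difference of -13.02 (SE 1.355, limma's adjusted p = 0.00208). Among nuclear partners of β-catenin, LEF1 went from 320.2 and 369 to no read, TCF7L1 from 322 and 296 to 26.8 and 24, TCF7 from 197 and 184 to 1001 and 987 and TCF7L2 from 899 and 978 to 4412 and 4270. MYC had 24401 and 24454 and 12428 and 12871, less than 2-fold apart.

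Hedgehog, BMP and Notch genes included several that were nearly silent on one side. Of 73 tested, 28 were higher and 24 lower, with a median of 0.484 (0 and 0.402 with 1 library left out). SHH, the Hedgehog ligand, had no read in MCF10A and 2044 and 2085 here, at least 1773-fold higher against a floor of 3 reads over both MCF10A libraries. GLI1, an effector and target of the pathway, had 284 and 265 against 3.75 and 0.982, GLI2 187 and 207 against 13.1 and 3.44, and GLI3, the main repressor, no read against 1644 and 1711. PTCH1, the receptor, stood at 214 and 208 and 352 and 361, less than 2-fold apart. CHRD, the BMP antagonist chordin, had 7224 and 7269 against 0 and 0.982, BMP4 1023 and 1051 against 11.2 and 12.8, and SMAD6, an intracellular inhibitor, 1945 and 1876 against 16.9 and 26. The ligand gene BMP4 and 2 genes of inhibitors of BMP signalling were thus higher together. ID3, a target of BMP signals, fell from 4239 and 3977 to 8.23 and 7.39, while ID1, another, had 7711 and 7708 and 13737 and 14811. DLL4 and NRARP, a ligand and a feedback inhibitor of Notch, rose from 1.87 and 1.47 to 580.5 and 600.5 and from 59.9 and 84.9 to 1754 and 1741, and the receptor NOTCH3 fell from 577 and 592 to 22.6 and 17.2.

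Growth factor genes changed sides within the EGF family. EREG, epiregulin, stood at 31149 and 29655 against 762 and 742, 40.05-fold, whereas EPGN, epigen, had 4.12 and 4.31 against 2755 and 2706 and NRG1, neuregulin, no read against 290.2 and 253. ERBB3, a neuregulin receptor, rose from 290.2 and 344 to 10341 and 10208, and EGFR, at 9045 and 9255 and 4918 and 4681, lay less than 2-fold apart. VEGFA, the main angiogenic factor, had 16469 and 16482 against 1133 and 1135, while VEGFC, its lymphatic relative, had no read against 601 and 600.4. FGF2 and FGFBP1, a basic fibroblast growth factor and its carrier, were nearly silent, at 2.06 and 1.23 and 4.12 and 1.85 against 678 and 643 and 9906 and 9799. Over the FGF, PDGF, VEGF and EGF families, 19 of 59 were higher and 22 lower, with a median of 0 (-0.022 and -0.166 with 1 library left out).

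Matrix genes were lower in the MDA-MB-436-labelled libraries. Of 79 tested matrix glycoproteins and collagens, 45 were lower and 16 higher, with a median of -1.51. FBN2, a fibrillin, had 5494 and 5787 in MCF10A and 0 and 0.616 here. COL4A5 and COL4A6, collagen chains of basement membrane encoded side by side, had 3210 and 3234 and 3517 and 3633 in MCF10A and 0 and 0 and 2.06 and 0 here. COL12A1, FBLN1, VCAN and FN1, which encode a fibril-associated collagen, fibulin, versican and fibronectin, fell from 2039 and 2063, 7232 and 7028, 3462 and 3619 and 4213 and 4222 to 2.06 and 5.54, 12.3 and 15.4, 10.3 and 4.31 and 45.3 and 34.5. Most of the lower genes named here were thus near 0 in the MDA-MB-436-labelled libraries. They were named with their values known and do not stand for the whole list, in which 34 called members changed at least 8-fold in either direction. AGRN, agrin, and COL18A1 were higher, at 38896 and 39553 against 10035 and 10340 and 1474 and 1477 against 146 and 178. LAMB3, a chain of the epithelial laminin, had 18857 and 19057 and 18567 and 19173.

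Proteases and their inhibitors moved both ways. Of 74 tested, 25 were higher and 33 lower, with a median of -0.248 (-0.67 and -0.45 with 1 library left out). It was -0.106 without the 25M and 0 without the deeper MCF10A library, and -0.107 without either HT-29-labelled library. The membrane metalloproteinase MMP14 fell from 6949 and 6800 to 37.1 and 44.4, the protease inhibitor TIMP3 from 11016 and 10863 to 6.18 and 0, and the secreted serine protease HTRA1 from 5827 and 5729 to 4.12 and 0. PLAT and PLAU, the plasminogen activators, went from 1710 and 1654 to 0 and 1.85 and from 886 and 840 to 26.8 and 25.9. Other serine proteases rose. PRSS1, a trypsinogen, had no read in MCF10A and 1423 and 1422 here, PRSS3, another, 3164 and 3355 against 7.49 and 12.3, and TMPRSS2, a membrane protease, 909.9 and 986 against 1.87 and 0.982. PRSS1 and PRSS3 are close copies, so reads could be split between them. MMP7, the epithelial matrilysin, rose from 15 and 8.84 to 1501 and 1529.

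The contractile and caveolar set held some of the largest decreases. CAV1, the coat protein of caveolae, stood at 41393 and 41772 in MCF10A and 35 and 30.8 in the MDA-MB-436-labelled libraries, a log2 difference of -10.26 (SE 0.055, limma's adjusted p = 1.07e-11). CAV2 fell from 11144 and 11199 to 648 and 603 and PTRF, which encodes cavin, from 14539 and 14601 to 4286 and 4431. CALD1, caldesmon, had 41.2 and 36.3 against 10232 and 10300. The non-muscle myosin heavy chains changed places: MYH10 fell from 3811 and 3905 to 498 and 449 and MYH14 rose from 99.2 and 87.9 to 40242 and 40462. Of 52 tested, 12 were higher and 21 lower, with a median of 0.059 (0.082 and -0.01 with 1 library left out).

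WWTR1, which encodes the Hippo effector TAZ, was at 2226 and 2175 in MCF10A and 4.12 and 0.616 here, while its paralogue YAP1 stood at 10292 and 10796 and 7337 and 7293, less than 2-fold apart. AMOTL1, an angiomotin that binds both, fell from 7324 and 7392 to 8.23 and 0, and AMOTL2 rose from 2373 and 2381 to 10157 and 10069. VGLL3, a cofactor of the TEAD factors, had 4.12 and 0.616 against 1562 and 1713. CYR61, a YAP target, stood at 389.5 and 393 and 537 and 531. Of 46 tested targets of YAP and SRF, 13 were higher and 18 lower, with a median of -0.239. Among integrins, ITGA5, the fibronectin receptor chain, was at 4.12 and 0 against 4781 and 4799. ITGA6 and ITGB4, the laminin receptor of hemidesmosomes, were at 20805 and 20215 and 28772 and 28887 against 25626 and 26148 and 35257 and 35321, less than 2-fold apart. Of 22 integrins 6 were higher and 5 lower.

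Complement genes also changed sides. Of 35 tested members of the complement and acute phase list, 22 were higher and 8 lower, with a median of 2.3 (1.05 and 1.37 with 1 library left out). C3, the central component, stood at 22763 and 22690 in MCF10A and 237 and 256 here, a log2 difference of -6.52 (SE 0.039, limma's adjusted p = 1.77e-11). SAA1, an acute phase apolipoprotein, fell from 6884 and 6729 to 14.4 and 11.7. The regulator SERPING1, which inhibits C1, had 5567 and 5659 against 0 and 0.982. CFB and C2, proteases of the convertases, had 6651 and 6887 against 110.5 and 89.3 and 852 and 852 against 0 and 1.96. C3, which these proteases cleave as parts of the convertases, was therefore low where they were high. With the 25M library of the MDA-MB-436 label left out, 13 of the list were higher, and with the deeper one left out, 14. SERPING1, CFB and C2 are known to be induced by IFN-γ, for which GBP4 above is the measured marker.

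Mucosal defence genes numbered 23 higher and 17 lower of 49 tested, with a median of 0.625 (-0.449 and -0.4 with 1 library left out). It was 1.68 and 1.75 without the 25M or the deeper MCF10A library, so its sign and size rest on single libraries. LYZ, lysozyme, had 37811 and 38025 against 1.87 and 0, and PIGR, which carries antibody across epithelium, 1052 and 974 against 0 and 0.491. LCN2, a siderophore-binding protein, had 23769 and 25182 against 50.6 and 42.7. NOX1 and CYBA, the colonic oxidase and its partner subunit, rose from 3.75 and 9.82 to 1954 and 1936 and from 5.62 and 6.38 to 8265 and 9026, while DUOX1, the oxidase of airway and gland epithelia, fell from 1258 and 1207 to 111 and 90.5. The antiproteases SLPI and PI3 fell from 19565 and 18831 to 537 and 528 and from 6438 and 6209 to 132 and 131. Without the 25M library of MCF10A only 10 members of the list were lower, as with the MCF10A libraries summed to 1 sample, an alternative added after the data were seen. Without the 25M or the deeper library labelled MDA-MB-436, 15 were higher.

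Of 65 tested cell death genes, 31 were higher and 12 lower, with a median of 0.958. DFNA5, which encodes gasdermin E, was nearly silent, at 0 and 1.85 against 2268 and 2268, while GSDMB and GSDMD had 2518 and 2672 against 9.36 and 3.44 and 3955 and 4257 against 462 and 438. PYCARD, the inflammasome adaptor, had 1064 and 1119 against 0 and 3.93, CASP1, the inflammasome protease, 2573 and 2656 against 964 and 1006, and IL18, a cytokine that CASP1 activates, 395 and 369.5 against 7659 and 7580. The substrate was thus lower where adaptor and protease were higher. RIPK3, the necroptosis kinase, had 397 and 382 against 0 and 0.982, while its target MLKL had 1932 and 1945 and 1814 and 1907 (adjusted p = 0.236). TNFSF10, which encodes TRAIL, rose from 35.6 and 39.8 to 4762 and 4702. Among its receptors, of which not all are given here, TNFRSF10A and TNFRSF10D fell from 2133 and 2142 to 331 and 317 and from 2079 and 2122 to 101 and 97.3. XAF1, an interferon-induced antagonist of apoptosis inhibitors, had 10773 and 10081 against 0 and 1.47.

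Among cytokines, CX3CL1, fractalkine, had 26268 and 26397 against 1.87 and 1.96 and TNFSF15 3319 and 3181 against 67.4 and 92.8, while CSF3, which drives neutrophil formation, had no read against 3608 and 3425 and IL1A, an epithelial alarmin, 10.3 and 9.86 against 3417 and 3285. The counts were 32 higher and 23 lower of 78. S100 calcium-binding proteins split as well, with 3 of 16 higher and 8 lower and a median of -1.04. S100A2 fell from 133773 and 131830 to 284 and 296, S100A8 and S100A9, the subunits of calprotectin, from 1644 and 1657 and 3710 and 3566 to 0 and 0 and 2.06 and 1.23, and S100P rose from 2285 and 2296 to 43890 and 46864. S100A6, at 62055 and 59271 and 43435 and 45702, lay less than 2-fold apart.

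Nuclear-encoded subunits of oxidative phosphorylation were lower by a modest and even margin. Of 65 tested subunits of complexes I, IV and V, none was higher, 30 were lower and the median was -0.927, against 25.6% higher and 23.7% lower over all genes. With no fold minimum 61 were lower and 1 higher. ATP5G3, a proton channel subunit of ATP synthase, fell from 18110 and 17412 to 3516 and 3671, COX6C of cytochrome oxidase from 7163 and 6927 to 1589 and 1566, and NDUFB7 of complex I from 4659 and 4455 to 1188 and 1239. These were among the larger changes, all under 8-fold. COX4I1, at 11760 and 11207 and 5593 and 5947, had a log2 fold change of -0.99, just short of the fold threshold. Such subunits and the chaperones below have processed copies elsewhere in the genome, and the sources used here do not say how shared reads were counted. The median of the list ran from -1.02 to -0.821 over all alternatives.

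Heat shock proteins and chaperones were lower more often than higher, at 18 of 42 with 6 higher and a median of -0.631. HSPB1, a small heat shock protein, fell from 28703 and 28454 to 852 and 840.1, a log2 difference of -5.08 (SE 0.047, limma's adjusted p = 7.68e-11), and HSPA8, the constitutive HSC70, from 123738 and 123758 to 20681 and 20637. HSPH1, a nucleotide exchange factor, and HSPE1, the mitochondrial co-chaperonin, fell from 19559 and 19864 to 5834 and 5821 and from 1609 and 1665 to 461 and 438. HSP90AB1 had 70858 and 70253 and 41416 and 41305, less than 2-fold apart. DNAJA4 was the largest increase of the list, from 7.49 and 3.93 to 1118 and 1151.

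Among lipid genes, those that make long polyunsaturated fatty acids were lower. FADS1 and FADS2, the desaturases, had 53.5 and 37 and 24.7 and 17.9 against 3567 and 3614 and 1374 and 1320, and ELOVL5, the elongase between them, 10.3 and 0 against 6333 and 6273. All 3 enzymes of the route were thus lower, with limma's adjusted p = 1.39e-08, 4.37e-09 and 0.00361. ELOVL6, which extends saturated chains, fell less, from 4685 and 4729 to 1058 and 1017. ACSL5, an intestinal acyl-CoA synthetase, rose from 13.1 and 9.82 to 16018 and 15828, and UCP2, a mitochondrial carrier, from 0 and 2.95 to 2020 and 2096. ANGPTL4, an inhibitor of lipoprotein lipase, fell from 3773 and 3615 to 4.12 and 9.24. Over the list 15 of 65 were higher and 28 lower, with a median of -0.627 (-0.982 and -0.973 with 1 library left out). It was -0.971 without either HT-29-labelled library. With the 25M library of the MDA-MB-436 label left out, 9 were higher.

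Eicosanoid genes were split, at 20 of 43 lower and 10 higher, with a median of -0.415 (-0.6 and -0.631 with 1 library left out). It was -0.158 without the 25M MCF10A library and -0.97 without either HT-29-labelled library. PTGES, prostaglandin E synthase, had 111 and 108 against 32101 and 31539 and ALOX15B, a lipoxygenase of skin and gland epithelia, 2.06 and 0 against 4453 and 4388. ALOX5, the first enzyme of leukotriene synthesis, had 572 and 581 against 0 and 0.491. PTGS1 and PTGS2, the cyclooxygenases, moved in opposite directions, from 554 and 584 to 82.3 and 90.5 and from 69.3 and 89.8 to 309 and 288.

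In detoxification, 18 of 44 tested genes were higher and 15 lower, with a median of 0.742 (0 and -0.04 with 1 library left out). CYP3A5, a cytochrome P450 of gut and liver, had 4986 and 4985 against 16.9 and 9.82 and UGT1A10, an intestinal glucuronosyltransferase, 352 and 349 against no read. Members of the UGT1A locus share exons, so reads between them are uncertain. GSTT1, a glutathione transferase, had no read in MCF10A and 865 and 897 here, whereas GSTP1 fell from 83670 and 81292 to 14725 and 15231. Without either library labelled MDA-MB-436, 10 of the list were higher, since members silent in MCF10A then fell below the filter. GPX2, the gastrointestinal glutathione peroxidase, had 9857 and 10103 against 9.36 and 7.86, TXNRD1, thioredoxin reductase, 40541 and 40743 against 3805 and 3847, and AKR1B1, aldose reductase, 8.23 and 4.31 against 7869 and 7848. Among ABC transporters, ABCC3 and ABCG2 rose from 1112 and 1091 to 16150 and 16334 and from 20.6 and 17.2 to 642 and 658, and ABCA12, which loads lipid into skin lamellar granules, fell from 2648 and 2818 to 12.3 and 9.86.

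Ion transport genes moved both ways. Of 64 tested, 27 were higher and 21 lower. The ENaC subunits SCNN1B and SCNN1G fell from 783 and 749 and 4195 and 4284 to 0 and 0 and 2.06 and 0, while the α subunit SCNN1A stood at 11660 and 11817 and 8321 and 8346. CFTR, the chloride channel, had 1143 and 1180 against 0 and 0.491, and the potassium channel KCNQ1 and its partner KCNE3 rose from 13.1 and 9.33 to 941 and 976 and from 0 and 0 to 688 and 706. These 3 genes are known to act together in colonic secretion. KCNN4, another potassium channel, fell from 6279 and 6274 to 8.23 and 6.78. For iron, the exporter SLC40A1, ferroportin, had 867 and 905 against no read and HEPH, its ferroxidase, 1291 and 1233 against 0 and 2.95, while CYBRD1, the apical reductase, had 0 and 5.54 against 854 and 798.

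Glycan genes were even, at 22 higher and 23 lower of 64. GCNT3, the mucin core enzyme, had 19843 and 20112 against 26.2 and 23.6, 828-fold, FUT4, a fucosyltransferase of Lewis antigens, 6287 and 6231 against 82.4 and 75.1, and ST3GAL1, a sialyltransferase, 19681 and 19876 against 1968 and 1992, while B4GALNT4 fell from 2060 and 2084 to 2.06 and 0. Of imprinted genes 17 of 42 were higher and 8 lower. ERAP2, a peptide-trimming aminopeptidase, and GRB10, an adaptor that restrains insulin signalling, rose from 119.8 and 100.2 to 12257 and 11563 and from 2843 and 2832 to 7909 and 7754. PEG10 and SGCE, paternally expressed neighbours, fell together from 4880 and 4972 and 1251 and 1197 to 12.3 and 3.69 and 0 and 0, as did PLAGL1, from 1260 and 1246 to 10.3 and 5.54. MEST, also paternally expressed, stood at 2092 and 2084 and 2227 and 2140. Among 25 clock genes 12 were higher and 4 lower. NR1D1 and PER3 rose from 476 and 490.5 to 1933 and 1836 and from 29.96 and 31.4 to 576 and 529, and ARNTL, which encodes the activator BMAL1, fell from 3135 and 3384 to 1070 and 1034.

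Tryptophan and NAD genes numbered 20 higher and 9 lower of 44. IDO1, which degrades tryptophan and is induced by IFN-γ, had 1291 and 1261 against no read, while KYNU, a later enzyme of the route, fell from 4923 and 4917 to 61.8 and 70.8. NRF2 targets and glutathione genes numbered 18 higher and 10 lower of 45, guidance molecules 24 and 21 of 66, and neuroendocrine genes 13 and 14 of 36. Of the last, 6 were higher without either library labelled MDA-MB-436.

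Genes in no list that differed most included TM4SF4, a tetraspan protein of liver and gut, at 9637 and 9993 against 0 and 0.491, MUC13, a membrane mucin, at 12191 and 12473 against 0 and 3.44, and TOX3, an HMG-box factor, at 5632 and 5383 against no read. EPS8L3, an actin regulator of microvilli, had 5052 and 5343 against no read. BNC1, basonuclin, a factor of squamous epithelium, fell from 7251 and 7383 to no read.

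Position along chromosomes was examined with the 14198 tested protein-coding genes placed in RefSeq order. On chromosome 8, 244 of 492 genes were lower, 49.6%, and 89 higher, 18.1%. On the other chromosomes the share of lower genes ran from 14.8% to 34.0%. Of the lower genes of chromosome 8, 140 lay in 1 stretch of 200 genes at its start, from ZNF596 to CA8. In this stretch 12 genes were higher and the median log2 fold change was -1.77. The stretch was chosen on these values, as the longest in which the median of 31 neighbouring genes stayed at or under -0.8, and has no test. Its genes have unrelated functions, and the examples were named after their values were seen. VDAC3, a mitochondrial channel, had 648 and 726 against 9380 and 9400, PBK, a mitotic kinase, 401 and 406 against 6234 and 6104, DPYSL2, a cytoskeletal phosphoprotein, 177 and 180.5 against 4178 and 4434, INTS9, of the Integrator complex, 206 and 226 against 1807 and 1723, IKBKB, a kinase of NF-κB signalling, 362 and 376 against 2212 and 2152, and POLB, a repair polymerase, 381 and 386 against 1275 and 1181. TNFRSF10A, TNFRSF10D, PLAT and SFRP1, described above, lie in it. Over the same 200 genes the median ratio of the libraries labelled HT-29 to MCF10A was 0.71. The rest of chromosome 8 held further stretches in both directions. From OSGIN2 to FZD6, 30 of 61 genes were lower and 12 higher, and from ZNF623 to C8orf33, 20 of 50 were lower and 7 higher. From NUDCD1 to POU5F1B, 22 of 50 were higher and 8 lower.

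The extreme 31-gene medians on chromosomes 1 and 6, -4.3 and 3.73, lay at the epidermal differentiation genes and at the HLA class II genes. On chromosome 15, 164 of 461 genes were higher, 35.6%, the highest share of any chromosome, and 68 lower. DNA copy number was not measured here, and its part in these patterns was not tested.

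**Figure D5:**
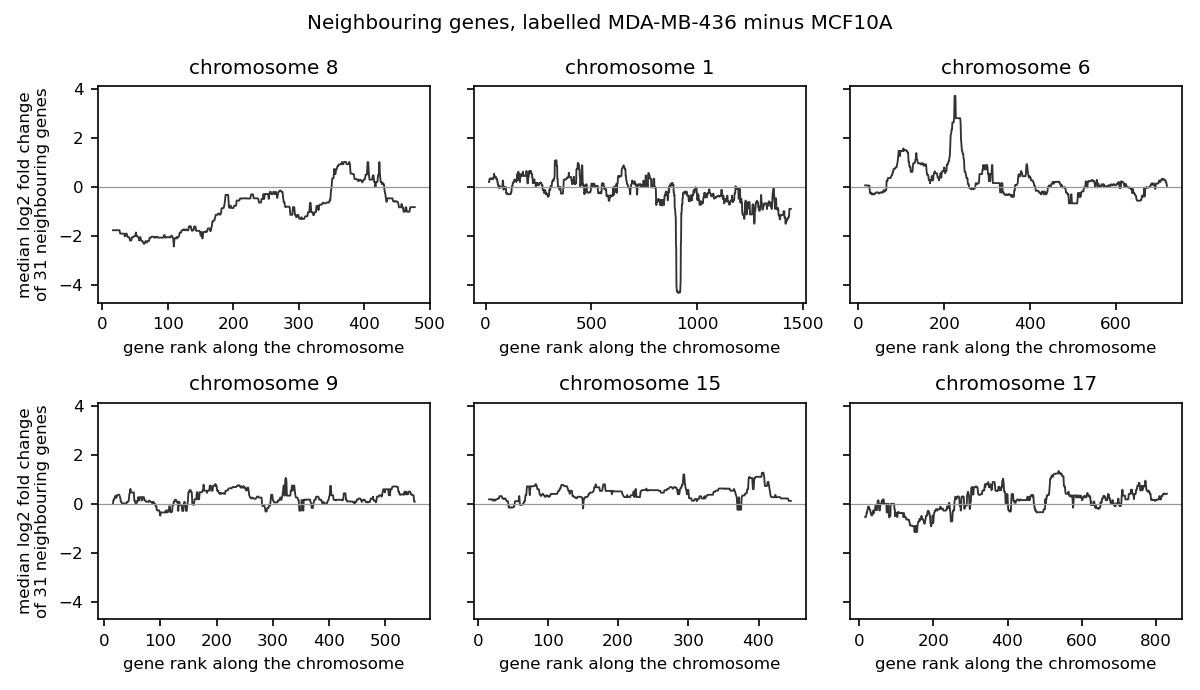
Median log2 fold change (labelled MDA-MB-436 minus MCF10A) of 31 neighbouring tested genes against the rank of the gene along 6 chromosomes. On chromosome 8 the line stays below -0.8 over its first stretch, where the lowest window has a median of -2.41, while chromosomes 1 and 6 show narrow extremes of -4.3 and 3.73.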

How the data were processed

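RNA sequencing of 6 libraries, 2 per line, was deposited as normalised counts per gene (a depth-scaled signal), per the file headers. The submitters' processing notes name STAR 2.2.0, HTSeq, FastQC and hg19, with no annotation or strand setting. The RPKM values deposited beside them were not used, since their rows are shifted. In each library 100% of the deposited values above 0 were whole multiples of 1 step (tolerance 0.01), which gave whole reads and their totals. Of 23368 rows, 28 that read as dates were dropped.

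The test was limma 3.58.1 (R 4.3.3) on log2(normalised count + 1), with trend and robust options and all 6 libraries in 1 fit with 3 residual degrees of freedom. Genes with at least 10 in at least 2 libraries were kept. The added 1 makes log2 differences understate the change of low genes. A gene was called where limma's p, adjusted by Benjamini-Hochberg, was below 0.05 and the log2 difference was 1 or more either way. Folds were computed from reads pooled per line, and their 95% intervals cover counting error only. On data simulated for this comparison over 15259 genes, none (0) of 67 genes with a 1.5-fold change was called. With 3-fold 67 of 67 were called and with 8-fold 66 of 66, and 1 call was false. The 1.5-fold genes lay under the fold threshold, so the rule largely set their result. The simulation drew counts with a small fixed spread and changed few genes, unlike the data. Its 1 false call therefore does not measure the error of the calls here. edgeR 4.0.16, DESeq2 1.42.0 and limma-voom on recovered reads, other scalings, pseudocounts, filters and fold rules, a block and left-out libraries were alternatives.

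Of 23340 gene names, 21988 matched RefSeq. Genes were named by rule: a label panel, up to 5 called members per list and direction with the largest change among those with a mean of at least 200, 15 per direction outside the lists, and other members that show a family or one that did not move. Members and lists were chosen with earlier results of these data known.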

Additional observations from a re-analysis of the deposited data

Results flagged for a closer look

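Signal in the libraries labelled HT-29, which the comparison does not use, lay above both MCF10A libraries for 2 genes of the label panel. GBP4 had a mean of 205.8 normalised counts in the libraries labelled HT-29, against at most 1.47 in MCF10A and 37589 or more in those labelled MDA-MB-436. VIM had a mean of 35930 in the libraries labelled HT-29, against at most 26246 in MCF10A.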

How the results depend on the processing

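Of 325 tested genes that the text could name, 299 were called. None reversed where it was tested, but 30 of the calls had no test with an MDA-MB-436-labelled library left out, and 4 had none with the MCF10A libraries summed or 1 of them left out. Calls were lost under at least 1 alternative by FUT3, CTGF, DNAJA1, HOXC10, KRT14 and KRT81. The counts of 3999 higher and 3702 lower genes moved by more than 1.5 times only with no fold minimum, which gave 6642 and 6542. Leaving out each library in turn gave 3421 to 4003 higher and 3486 to 3723 lower, with fewer genes past the filter when a library labelled MDA-MB-436 was left out. TMM scaling gave 3749 higher and 4008 lower, edgeR 3904 and 3868, and DESeq2 3915 and 3569. With the MCF10A libraries summed to 1 sample, 3928 were higher. With the 25M and deeper labels as a replicate block, 4005 were higher and 3710 lower. Differences between the deeper and the 25M library correlated at -0.012 between MCF10A and the HT-29 label over 10880 genes with higher counts. They correlated at -0.014 between MCF10A and the MDA-MB-436 label and at 0.058 between the HT-29 and MDA-MB-436 labels. In such genes read sampling can make up much of the difference, so these values cannot decide whether the depth labels pair the libraries. KRT5 and KRT14, described above, were higher in the 25M library of both the MDA-MB-436 and the HT-29 label.

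With no fold minimum, more members were higher among YAP and SRF targets (21 in place of 13), contractile genes (25 for 12) and chaperones (10 for 6). More were lower among chaperones (29 for 18), nuclear receptors (9 for 5), cell death genes (20 for 12), amino acid enzymes (32 for 21), integrins (9 for 5), clock genes (8 for 4), ABC transporters (14 for 9), iron and copper genes (19 for 9), tryptophan and NAD genes (17 for 9) and NRF2 targets (17 for 10). Tested against a fold of 2, 3 integrins were higher, and with a filter of at least 50, 6 ABC transporters and 6 eicosanoid genes were. With genes at 0 reads in a group set to their bound, the median of the lipid list became -0.587 and no other list median quoted here moved. In genes with few reads, depth limits what can be seen, and a count of 0 reads allows up to 3.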
